A study of Arabidopsis thaliana with 6 samples.

Results

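QQS (Qua-Quine Starch, locus AT3G30720) is an orphan gene of Arabidopsis thaliana, and its transcript was read here by 1 probe set, 256940_at, of 22746 plant probe sets on the array. The gene was chosen by measured values of these same arrays, namely its level in each group, its spread within each group and its rank on each array. Those values are therefore given as a description, without a test. The annotation used here assigns 256940_at to QQS alone, and no other probe set names the gene.

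QQS encodes a small protein without recognised relatives in other species, which is what makes it an orphan gene. Plants with reduced QQS expression are known to build up more leaf starch, and the protein is known to bind NF-YC4, a subunit of the NF-Y transcription factor, with effects on how carbon and nitrogen are divided between starch and protein. QQS expression is also known to differ between natural strains and between lines of 1 strain, and its silencing has been linked to DNA methylation near the gene.

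The series compared Col-0 wild type plants (3 arrays) with epiF3 plants (3 arrays). Both groups were of ecotype Col-0, aged 30 days, grown in potting mix with 12 h of light at 22 °C, and RNA came from the aerial part, with TRIzol extraction from individual plants. The titles name biological replicates 1 to 3 in each group. The sample descriptions call the epiF3 plants albino msh1 mutants, and the labels give neither the pedigree of epiF3 nor how that name relates to msh1, an organelle-targeted MutS homologue mutant.

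QQS signal was above the middle of the array on every wild type array and in or just above the lowest 25% of values on every epiF3 array. On the log2 scale of the deposited RMA values it was 4.81 in wild type replicate 1, 6.98 in replicate 2 and 5.54 in replicate 3. In epiF3 it was 2.2, 2.43 and 2.23 in replicates 1, 2 and 3. The groups did not overlap, and the lowest wild type array lay 2.38 log2 units, or 5.21-fold, above the highest epiF3 array.

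The mean was 5.78 ± 1.1 in wild type and 2.29 ± 0.13 in epiF3 (SD, n = 3 each). The difference, epiF3 minus wild type, was -3.49. Its standard error was 0.64 from the pooled SD, which mixes 2 unlike SDs. Since the gene was chosen by these values, the standard error is a description and no test. The signal was 11.2-fold lower, which is a lower limit in so far as the epiF3 values near the low end of their arrays are background. It was the 8th largest fall among the 22746 probe sets. Of all probe sets, 16.9% had groups that did not overlap, 7.11% with epiF3 lower. A gap between the groups as wide as that of QQS was found for 11 probe sets with epiF3 lower, QQS included, and for 2 with epiF3 higher.

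**Figure D1:**
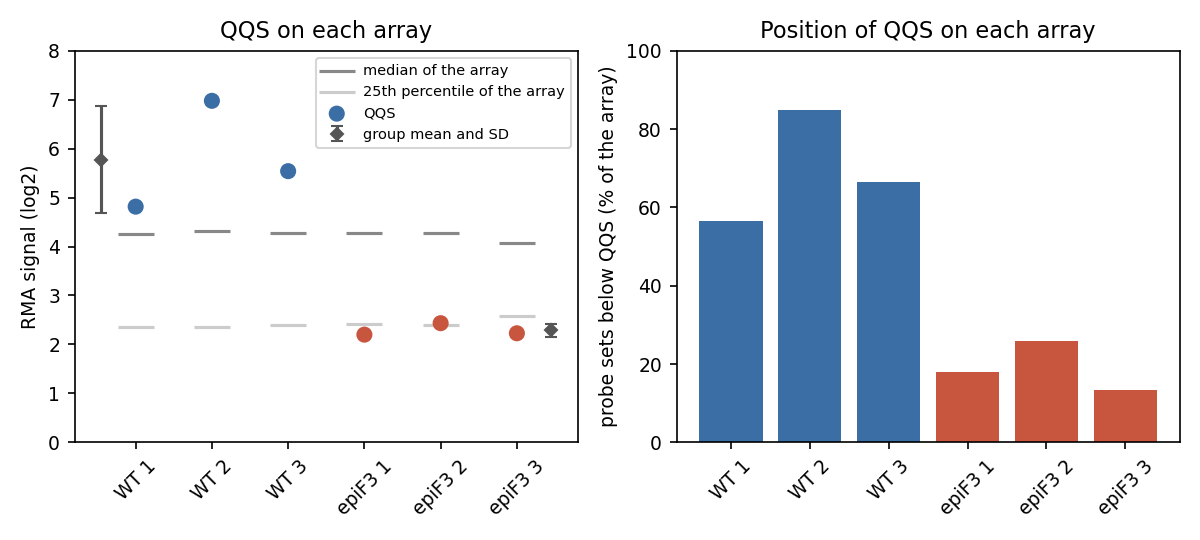
QQS signal on each array (left, log2 RMA value, points) with the median and the 25th percentile of that array (horizontal marks) and the group mean with SD (diamonds, n = 3), and the share of the array's probe sets with a lower signal than QQS (right, percent). Wild type (WT) arrays are blue and epiF3 arrays are red; the wild type points run from 4.81 to 6.98 and the epiF3 points from 2.2 to 2.43.

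Position on the array separated the groups in the same way. QQS had a higher signal than 56.6% of probe sets in wild type replicate 1, 84.9% in replicate 2 and 66.5% in replicate 3, which are ranks 9865, 3426 and 7616 from the highest. In epiF3 it exceeded 17.9%, 26.0% and 13.5% of probe sets in replicates 1, 2 and 3, at ranks 18609, 16839 and 19684. The 25th percentile of those arrays was 2.41, 2.39 and 2.58, so QQS lay below it on epiF3 replicates 1 and 3 and just above it on replicate 2. No detection calls were used, so these values place QQS at the low end of each epiF3 array and do not show that the transcript was absent. In whole aerial tissue, fewer cells with the transcript and less transcript per cell cannot be told apart.

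QQS signal differed widely among the wild type arrays. Differences between plants and differences between RNA samples or arrays cannot be told apart here. The highest wild type array, replicate 2, was 4.47-fold above the lowest, replicate 1, whereas the highest epiF3 array was 1.18-fold above the lowest. The wild type SD of 1.1 exceeded that of 99.2% of probe sets, whose median was 0.15, and 98.4% of the 3253 probe sets with a wild type mean within 0.5 log2 units of QQS. The epiF3 SD of 0.13 was larger than that of 31.2% of all probe sets and of 29.3% of the 7104 with a like epiF3 mean. The median epiF3 SD was 0.18 over all probe sets and 0.19 over those 7104. QQS lay near the low end of the epiF3 arrays, which limits what its small spread there can show. Without wild type replicate 2 the wild type SD of QQS was 0.51, and it was 1.02 without replicate 1 and 1.53 without replicate 3.

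**Figure D2:**
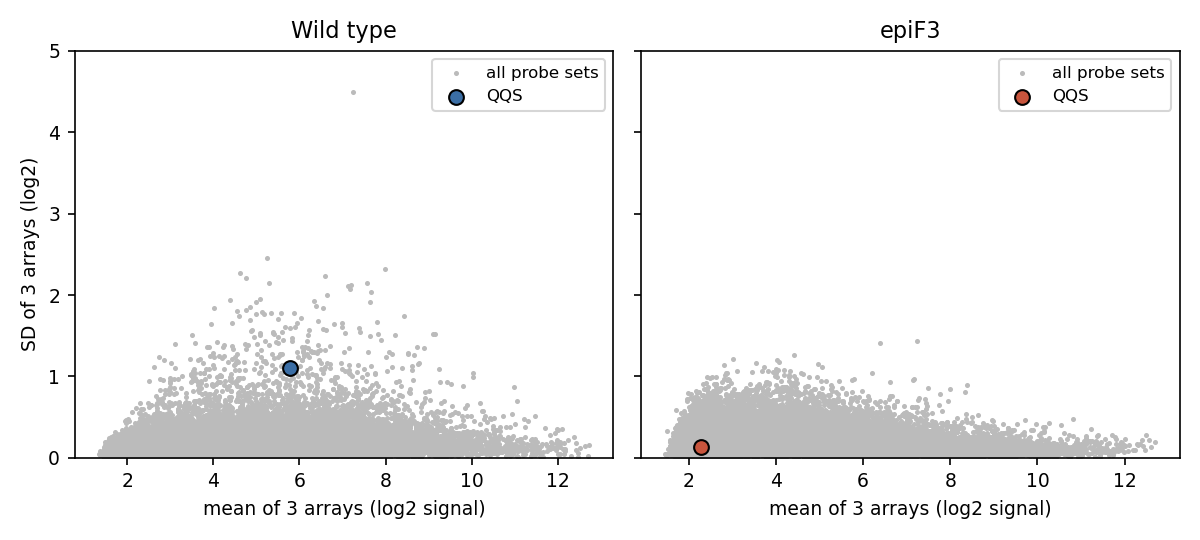
Mean (x axis, log2 signal) against SD (y axis, log2) over the 3 arrays of each group for all 22746 probe sets (grey points), with QQS as the large point; wild type is on the left and epiF3 on the right. QQS stands at an SD of 1.1 among wild type arrays, above most probe sets of its level, and at 0.13 among epiF3 arrays, inside the cloud.

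The order of the wild type arrays was not that of other transcripts that varied as much as QQS or more. A wild type SD at least as large as that of QQS was found for 186 other probe sets. Of these, 133 were highest in wild type replicate 2, as QQS was, but 152 were lowest in replicate 3, and only 10 were lowest in replicate 1, where QQS was lowest. None of the 186 had the order of QQS, from replicate 1 through replicate 3 to replicate 2, which 13.8% of all probe sets had. The cutoff is the wild type SD of QQS, a value used to choose the gene. Most of the 186 also shared their highest and lowest arrays, so the count is a description only. Among genes picked below for likeness to QQS the order occurred at smaller wild type SDs, as in accD (0.87) and AT1G02660 (0.85). Counting QQS, 14 probe sets were at least as variable in wild type and no more variable in epiF3, among them PDF1.2, a plant defensin gene.

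Other measures of the arrays moved in part with the groups. The 18 probe sets for RNA added before hybridization averaged 7.53, 7.11 and 8.21 in wild type replicates 1, 2 and 3 and 8.19, 8.36 and 10.5 in epiF3 replicates 1, 2 and 3. Their part in the QQS difference was not tested. Without epiF3 replicate 3, the array with the highest added controls, the difference was -3.46. The added controls of epiF3 replicates 1 and 2 were still above those of wild type replicates 1 and 2. Leaving that array out therefore does not separate the controls from the groups. The signal of actin at the 3' end minus that at the 5' end, a sign of RNA integrity, was 3.20 to 4.15 in wild type and 3.45 to 3.73 in epiF3. The same measure was 0.46 to 1.26 and 0.60 to 0.84 for GAPDH, and 1.35 to 1.69 and 1.57 to 1.77 for ubiquitin. For each of these genes wild type replicate 1 was the lowest and replicate 3 the highest wild type array. Their part in the wild type spread of QQS was not tested. Of the green shoot markers 2 of 9 were measured under a name, the Rubisco activase gene RCA and the antenna protein gene LHCB4.1. Both were from 11.7 to 12.9 on every array, and RCA overlapped between groups. LHCB4.1 was at 11.99, 12.17 and 12.17 in wild type and 11.97, 11.87 and 11.72 in epiF3. These groups did not overlap, as for 16.9% of all probe sets. The LHCB4.1 difference was -0.26 (standard error 0.13, limma adjusted p = 0.542). The 5 measured root and anther markers of 8 lay between 2.16 and 4.51 in wild type and between 2.30 and 4.43 in epiF3, and no seed marker was measured under a name.

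QQS lies on chromosome 3 among annotated pseudogenes. In the RefSeq gene order of assembly TAIR10.1, 15 of the 20 entries within 10 places of QQS are pseudogenes and 3 are protein-coding, against 12.8% pseudogenes among all 37887 nuclear entries. The genome build behind the array design is not given in the sources used here, so the assembly served for names and order only. Only 2 of those 20 entries were matched by name to a probe set of their own. The nearest genes measured under a name were 12 places before QQS (AT3G30710, a pseudogene) and 4 places after it (AT3G30730, protein-coding). Whether any of the 8730 probe sets unnamed here read other entries cannot be told. Neighbours called measured below are those measured under a name.

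None of the measured genes around QQS passed the test between groups. Of the 10 nearest measured genes on each side, 20 in all, 0 passed an adjusted p of 0.05 in limma across all probe sets, and 0 had an unadjusted p under 0.05. Over all probe sets 0.598% passed the adjusted threshold in either direction and 10.9% had an unadjusted p under 0.05. Changes of the 20 neighbours ran from -0.28 to 0.52 with a median of 0.12, and 4 were negative, while the median of all probe sets was 0.03. On all 6 arrays 14 of the 20 were in the lowest 25% of the array, which left little room for a lower signal in epiF3.

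AT3G30710 was the neighbour with the lowest change. Its log2 signal was 2.62, 2.79 and 2.62 in wild type replicates 1, 2 and 3 and 2.50, 2.53 and 2.15 in epiF3, groups that did not overlap. The change was -0.28 (standard error 0.15, limma adjusted p = 0.558), and -0.16 without epiF3 replicate 3. Groups that did not overlap were found for 3 of the 20 neighbours, near the 16.9% of all probe sets.

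No change of the other nearest measured genes passed the threshold. Before QQS, the pseudogenes AT3G30670 and AT3G30660 had differences of 0.19 and 0.26 (standard errors 0.17 and 0.19). Both differences rested on epiF3 replicate 3, where the genes were at 2.35 and 2.62, and were 0.024 and 0.048 without it. The AT3G30670 difference was 0.33 without epiF3 replicate 1. The probe set of AT3G30670 has a name ending in _s_at, and those of AT3G30660 and the more distant neighbour AT3G30560 end in _x_at. Whether these probe sets also read other loci was not tested, so their values may not belong to the named gene alone. After QQS, the protein-coding AT3G30730 differed by 0.06 (standard error 0.15). The pseudogenes AT3G30740, annotated as transcribed, and AT3G30750 had differences of 0.39 and 0.04 (standard errors 0.18 and 0.11). The first was 0.24 without epiF3 replicate 3, and the second 0.023 without epiF3 replicate 2 and 0.064 without epiF3 replicate 3. The sign turned under other scalings for AT3G30730 and AT3G30750, and with 1 array left out AT3G30730 ran from -0.042 to 0.14.

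**Figure D3:**
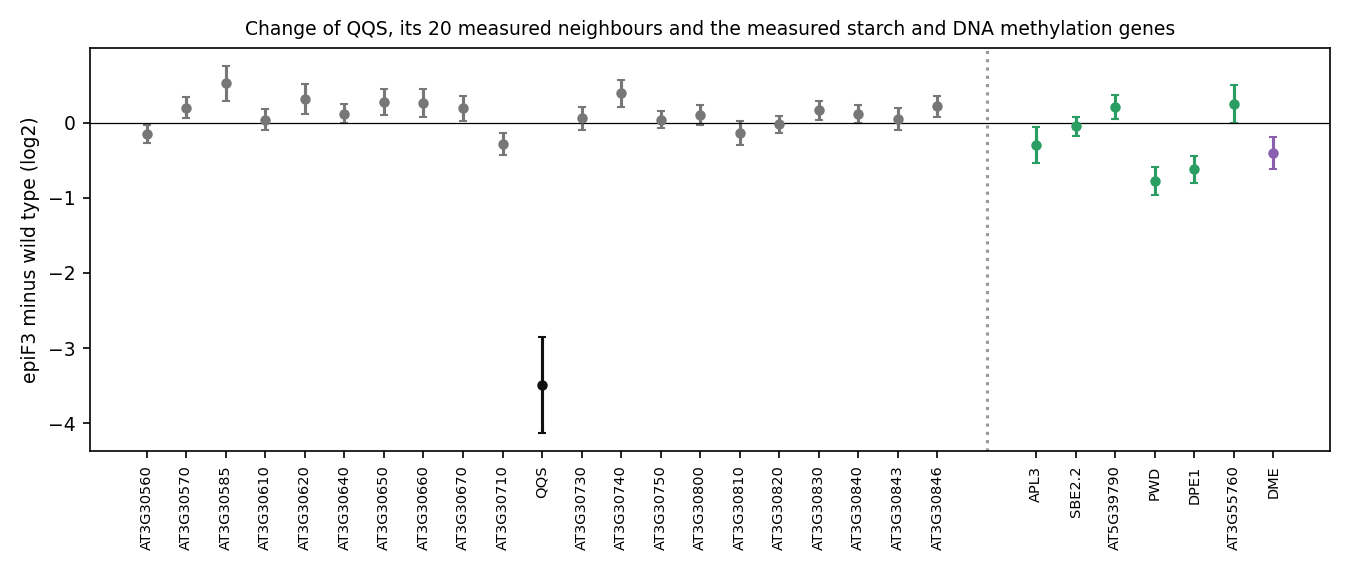
Difference epiF3 minus wild type (y axis, log2) with its standard error for QQS (black, standard error from its own pooled SD), the 10 measured genes on each side of it in chromosome order (grey), the 6 measured starch genes (green) and DME (purple), whose standard errors are from limma. QQS stands at -3.49 and the neighbours between -0.28 and 0.52.

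Starch is the trait QQS is named for, and 6 of 35 listed genes of starch synthesis and breakdown were measured under a name. At the adjusted limma threshold 0 were higher and 0 lower in epiF3, beside 0.268% and 0.33% of all probe sets, and 2 had an unadjusted p under 0.05, both starch breakdown genes, beside 10.9% of all probe sets. The median change was -0.17 over the 6, with 4 negative, beside a median of 0.03 and 44.3% negative over all probe sets. Groups did not overlap for 2 of the 6, beside 16.9% of all probe sets in either direction. Both of these had epiF3 lower, beside 7.11% of all probe sets.

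PWD, phosphoglucan water dikinase, adds phosphate to starch glucans at the start of breakdown. Its log2 signal was 7.55, 7.53 and 8.10 in wild type replicates 1, 2 and 3 and 7.12, 6.91 and 6.82 in epiF3. All epiF3 arrays were below all wild type arrays, and the difference was -0.78 (standard error 0.19, limma adjusted p = 0.147).

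DPE1, the plastid disproportionating enzyme, acts on short glucans released from starch. Its signal was 6.43, 6.35 and 6.99 in wild type and 6.02, 5.91 and 5.98 in epiF3, again without overlap. The difference was -0.62 (standard error 0.18, limma adjusted p = 0.237). For both genes the highest wild type array was replicate 3, whereas QQS was highest in replicate 2. The third gene of the breakdown list, AT3G55760, overlapped between groups, and the difference of 0.25 was as large as its standard error (0.25). It was 0.052, 0.15 and 0.56 without wild type replicates 1, 2 and 3.

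Genes of starch synthesis overlapped between groups. APL3, a large subunit of ADP-glucose pyrophosphorylase, was at 5.15, 4.70 and 4.83 in wild type and 4.96, 4.76 and 4.07 in epiF3 (difference -0.30, limma adjusted p = 0.691). With epiF3 replicate 3 left out the APL3 difference was -0.036, with epiF3 replicate 1 left out -0.48, and with wild type replicate 1 left out -0.17. SBE2.2, a starch branching enzyme, was at 7.91, 7.88 and 7.81 in wild type and 7.96, 7.78 and 7.71 in epiF3. The difference was -0.05 (standard error 0.13). Its sign turned after median centring, and it ran from -0.12 to 0.0054 with 1 array left out. AT5G39790, also on the synthesis list, differed by 0.21 (standard error 0.16), by 0.084 without wild type replicate 3 and by 0.12 without epiF3 replicate 1.

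The partners and regulators linked to QQS were mostly not measured under a name. None of 24 NF-Y subunits, NF-YC4 included, and none of 16 nitrogen assimilation genes had a named probe set, so they are not analysed here. Of 36 genes for DNA methylation and silencing 1 was measured, the DNA demethylase gene DME. It was at 4.29, 4.88 and 4.83 in wild type and 4.47, 4.37 and 3.95 in epiF3, which overlap. The DME difference was -0.40 (standard error 0.21, limma adjusted p = 0.551), and -0.25 without epiF3 replicate 3.

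The genes whose profile was most like that of QQS were sought among 829 other probe sets that name 1 gene and have an SD of at least 0.5 over the 6 arrays. Likeness was Pearson's r over the 6 arrays, given as a description. All genes share these arrays, and r here mostly follows the difference between groups. It was at least 0.95 for 22 of the 829 probe sets and at most -0.95 for 10, with a median of 0.41.

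SUFE2, an activator of cysteine desulfurase in iron-sulfur cluster assembly, had the highest r, 0.991. Its log2 signal was 3.83, 4.94 and 4.27 in wild type replicates 1, 2 and 3, the same order as QQS, and 2.88, 3.02 and 3.11 in epiF3. The difference for SUFE2 was -1.34, smaller than the -3.49 of QQS.

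The 7 genes next in order carry locus names only. The difference between the group means was -1.14 for AT4G29610 (r = 0.988), -2.97 for AT1G22890 (0.987), -0.87 for AT3G47550 (0.984) and -1.86 for AT3G28540 (0.982). It was -1.12 for AT1G35710 (0.981), -1.84 for AT4G38550 (also 0.981) and -2.53 for AT1G13750 (0.972). Of these AT1G22890 came nearest to QQS in size, at 5.85, 6.87 and 6.22 in wild type and 3.44, 3.48 and 3.12 in epiF3. All 8 were without overlap between the groups, and the choice by r favours that. The probe set of AT4G38550 has a name ending in _s_at, and whether it also reads other loci was not tested.

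**Figure D4:**
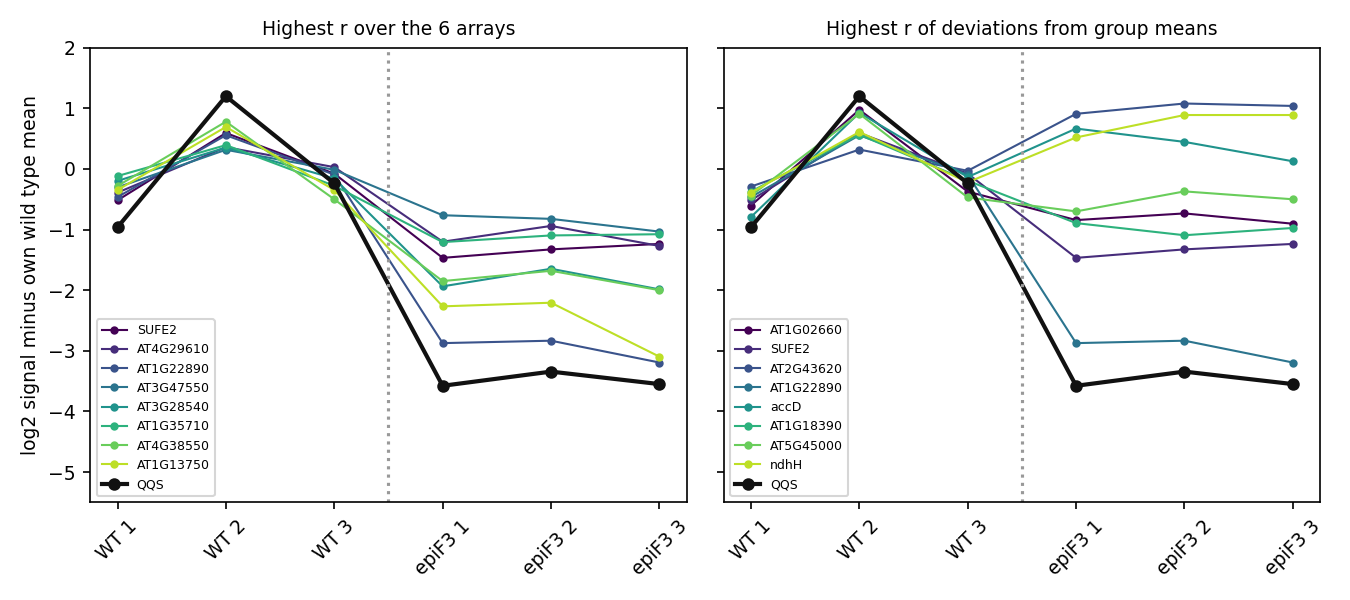
Log2 signal minus the gene's own wild type mean (y axis) on each array (x axis; WT is wild type) for QQS (thick black line) and the 8 genes with the highest Pearson's r with QQS over the 6 arrays (left) or with the highest r of deviations from the group means (right). Lines join arrays to show profiles and imply no order; QQS runs lowest in epiF3 in both panels.

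A second measure was r of the deviations from the group means, which takes out the difference between groups. Of the squared deviations of QQS 98.7% came from the 3 wild type arrays, so this r mostly follows those arrays. It was at least 0.9 for 14 of the 829 probe sets and at most -0.9 for 7, with a median of 0.14. The highest was that of AT1G02660 (0.979), followed by SUFE2 (0.975), AT2G43620 (0.975), AT1G22890 (0.948), accD (0.946), AT1G18390 (0.939), AT5G45000 (0.932) and ndhH (0.932). SUFE2 and AT1G22890 were thus among the 8 by both measures. The differences between groups of these genes did not share a sign: AT2G43620 was 1.01 log2 units higher in epiF3.

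Both plastid genes in that set also had higher means in epiF3, by 0.41 for accD and 0.76 for ndhH. For accD this rested on wild type replicate 1. The accD difference was 0.018 without that array and 0.88 without wild type replicate 2. The ndhH difference was 0.57 to 1.07 with 1 array left out. accD, the plastid-encoded subunit of acetyl-CoA carboxylase, was at 6.17, 7.89 and 6.83 in wild type and 7.63, 7.41 and 7.09 in epiF3. ndhH, a subunit of the plastid NDH complex, was at 4.92, 5.92 and 5.09 in wild type and 5.83, 6.20 and 6.20 in epiF3. Both shared the wild type order of QQS, and both overlapped between the groups.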

How the data were processed

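Deposited values are log2 signals, 1 for each array and probe set, made by the authors with RMA (a robust averaging of probes over arrays) and affy, per the submitters' processing notes, which give no versions. The log2 scale was read from the range of the values. The sources used here give neither the background method nor how probe sets were defined. The 64 control probe sets were left out of the tests. Of 22746 plant probe sets, 13513 name 1 gene, 503 name several and 8730 are unnamed here, and 13436 were matched to RefSeq (TAIR10.1). The brightest probe set stood for a gene.

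The comparison used R 4.3.3 and limma 3.58.1 (lmFit, then eBayes, two-sided, without a block), with Benjamini-Hochberg adjustment over all 22746 probe sets. The fit was also run on simulated data with the kind of noise the fit assumes. That run checks the calculation and does not show how well the fit suits these arrays. QQS itself was not tested. The members and lists were chosen with earlier results of these data known. Text names QQS, the 3 nearest measured genes on each side, called neighbours, the 8 genes most like QQS by each measure, and for each list its called members and the 3 with the smallest p. PDF1.2 was chosen after its values were seen. Same-numbered arrays did not deviate together (r of -0.0775, -0.0424 and -0.0453). Ranks, spread and likeness were computed in Python 3.11.15 with numpy 2.4.6 and pandas 2.3.3, and figures with matplotlib 3.10.9. Precision is limited by the small number of arrays. The sources used here name no date or batch.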

Additional observations from a re-analysis of the deposited data

Results flagged for a closer look

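The probe sets for RNA added before hybridization, which no comparison of plant genes uses, averaged 8.36 on epiF3 replicate 2 and 10.5 on epiF3 replicate 3, above the highest wild type array (8.21). All 18 were highest on epiF3 replicate 3. QQS was at 2.43 and 2.23 on these arrays and at 2.2 on epiF3 replicate 1, whose added controls averaged 8.19.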

How the results depend on the processing

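The QQS difference of -3.49 was -3.42 after median centring, -3.52 after quantile normalization, -3.45 after cyclic loess, -3.70 with array weights and -3.49 with the replicate number as a block. It was -3.97 to -2.89 with 1 array left out. Alternatives for the QQS spread and gap and for the changes of the genes most like it were chosen after seeing the data. The wild type SD was 1.07 to 1.1 and the gap between groups 2.36 to 2.41 under the 3 scalings. Counts of called neighbours, starch genes and DNA methylation genes stayed at 0 under every alternative run. One alternative left out the dimmest 40% of probe sets, the named neighbours among them, so it could not call those. The 136 calls over all probe sets became 449 with array weights, 74 with the replicate number as a block, and 33 to 402 with 1 array left out: 64, 54 and 402 without wild type replicates 1, 2 and 3, and 83, 33 and 62 without epiF3 replicates 1, 2 and 3. Same-numbered arrays share only a number. Signs turned for AT3G30730 (-0.075 under cyclic loess, -0.042 to 0.14 with 1 array left out, with -0.018 when wild type replicate 2 was the array left out), AT3G30750 (-0.026 after quantile normalization, -0.091 under cyclic loess) and SBE2.2 (0.022 after median centring, -0.12 to 0.0054 with 1 array left out, positive without epiF3 replicate 3). The cause was not tested. By Spearman's rho no first 8 is defined, since 34 probe sets tied at the highest rho of 0.943, and 5 of the 8 genes most like QQS by r were among these 34. The NF-Y and nitrogen lists had no measured member, so no alternative was run for them. Signals near the low end of the arrays limit how large a fall can be seen.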
